A study of Mus musculus with 4 samples.

Results

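The immunoproteasome and MHC class I presentation genes were followed in mouse aortic smooth muscle cells in culture that either carried or lacked LAMP-2A, with and without LDL. The set held 10 of the 21363 genes named on the array: the catalytic subunits Psmb8, Psmb9 and Psmb10, the peptide transporter Tap1 and Tap2, tapasin (Tapbp), the heavy chains H2-K1 and H2-D1 with their light chain B2m, and the transactivator Nlrc5. The 10 genes were listed by name, and their values came from every non-control probe whose RefSeq accession belonged to one of them. This gave 12 probes, with 1 probe for 8 members and 2 probes for H2-K1 and for Nlrc5.

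The proteasome cuts cytosolic proteins into peptides, and under interferon its constitutive catalytic subunits Psmb5, Psmb6 and Psmb7 are exchanged for Psmb8, Psmb9 and Psmb10. Tap1 and Tap2 pump the peptides into the endoplasmic reticulum, where tapasin helps to load them onto a class I heavy chain paired with B2m for display at the cell surface. Nlrc5 is a nuclear transactivator of class I genes, and smooth muscle cells of the arterial wall, like nearly all nucleated cells, carry class I molecules.

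Messenger RNA was measured on 4 Agilent arrays with 1 colour, each holding RNA pooled from a triplicate, from cells of the C57BL/6J strain. The wild-type line (WT) and the LAMP-2A knockout line (L2AKO) were derived from 5 aortas, as the labels state, and were used at passages 12 to 16. LAMP-2A is the receptor through which chaperone-mediated autophagy feeds single proteins to the lysosome. For 24 h the confluent cells were kept in DMEM with 5% lipoprotein-deficient serum, either with no LDL (WT control and L2AKO control) or with LDL at 150 µg/ml cholesterol and 0.1 U/ml bovine lipoprotein lipase (WT LDL and L2AKO LDL). The labels leave unstated whether lipase was also added where LDL was not. Each genotype was represented by 1 line and each group by 1 array, so no difference below carries a replicate error or a p-value.

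Values are log2 intensities minus the 75th percentile of their array, called normalised values, and a difference of 1 is a 2-fold difference in intensity. A gene was counted as higher or lower at 1.5-fold (0.58 on the log2 scale). The only error that could be measured between copies of a probe was technical and lay within an array. For probes printed repeatedly, the median SD between spots was at most 0.054, which gives 0.08 for the difference of 2 spots. It leaves out differences between arrays, which were larger for the spike-in controls described below. Normalised values of different genes come from different probes and were not compared with each other.

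The 75th percentile of the signal ran from 318.8 to 433.8 over the arrays, 47.2% to 52.0% of probes were well above background, with none saturated. The array of L2AKO cells with LDL was on another slide and scanned apart. On it 7 of 8 spike-in controls fell above or below all values of the other 3 arrays. Slide and group cannot be told apart for this array. The 8 controls on it lay from -1.17 to 0.63 from the mean of the other 3 arrays. Among those 3, WT control was the highest for each spike-in control, and the 3 arrays spanned 0.20 to 0.50. Each control was thus also lower in WT LDL than in WT control. The part of these shifts in the differences below was not tested. A Lamp2 probe was at 3.68 and 3.74 in WT and at 2.30 and 2.41 in L2AKO, and the other Lamp2 probe was between 6.09 and 6.38 on every array. Which of them lies in the deleted part is not stated in the labels. Of 10 smooth muscle markers 6 were well above background, while Myh11, Myocd, Des and Lmod1 were not on any array. Among 13 macrophage and dendritic cell markers, 7 or 8 were well above background, and Ptprc, Adgre1, Itgax, Tyrobp and Laptm5 were not on any array. Their summed level was 38.3 and 33.1 in WT, 35.4 and 51.6 in L2AKO, without and with LDL, and that of the smooth muscle markers was 213 and 189 against 159 and 153. Lymphocyte markers (3 of 10 detected) summed to 3.28 to 4.69 and endothelial markers (4 of 9) to 4.93 to 6.20. The summed level of 8 adventitial fibroblast markers was 28.0 and 25.5 in WT against 151 and 144 in L2AKO. These sums hide single markers that went opposite ways. L2AKO minus WT without LDL was positive for 4 fibroblast markers and negative for 3, from -1.03 to 4.28. With LDL it was positive for 3 and negative for 3, from -1.14 to 4.85, with a median of 0.30. The measured smooth muscle markers were split 3 and 3 in both comparisons. The part of these cell markers in the differences below was not tested.

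Promoter sequences are shown first because several members lie close together on chromosome 17 and their upstream windows differ in the motifs they hold. The RefSeq table of assembly GRCm38.p6 gave the 250 bases before the start of 8 of the 10 members, and positions below are counted from that start. Psmb9 and Tap1 lie head to head on chromosome 17, so that 225 bases lie between their starts. The interval is printed from the Psmb9 side to the Tap1 side, chr17:34187331-34187555 on the plus strand, with a CCAAT box and a TGACG half-site in capitals.
Psmb9-Tap1 interval: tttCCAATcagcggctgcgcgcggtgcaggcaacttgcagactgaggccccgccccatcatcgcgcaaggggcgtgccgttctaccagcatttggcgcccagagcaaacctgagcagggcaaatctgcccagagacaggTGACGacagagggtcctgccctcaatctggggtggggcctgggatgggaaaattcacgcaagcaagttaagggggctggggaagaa
Psmb8, the neighbouring immunoproteasome gene, is shown for its upstream window, chr17:34197945-34198194 on the plus strand. The capitals mark the letters of a gamma-activated site (TTCNNNGAA), a motif of interferon-gamma responses, 97 bases before the start.
Psmb8: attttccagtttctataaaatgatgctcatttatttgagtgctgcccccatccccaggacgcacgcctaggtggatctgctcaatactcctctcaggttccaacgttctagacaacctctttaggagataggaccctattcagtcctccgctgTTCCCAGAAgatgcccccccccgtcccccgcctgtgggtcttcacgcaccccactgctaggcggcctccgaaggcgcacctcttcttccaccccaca
H2-D1 is shown for the class I heavy chains, chr17:35262844-35263093 on the plus strand. The capitals mark the letters of NF-kappa-B sites (GGG, any 2 bases, T, any 2 bases, CC), a TGACG half-site and CCAAT boxes.
H2-D1: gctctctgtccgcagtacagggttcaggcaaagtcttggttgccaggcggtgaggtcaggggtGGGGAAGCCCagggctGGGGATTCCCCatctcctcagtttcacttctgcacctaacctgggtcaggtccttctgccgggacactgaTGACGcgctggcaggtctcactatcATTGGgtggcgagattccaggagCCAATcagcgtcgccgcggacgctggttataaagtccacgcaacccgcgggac

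For the class I chains, a 30-base stretch of each upstream window is compared, since the same motif recurred in H2-D1 (chr17:35262913-35262942, plus strand), H2-K1 (chr17:34000439-34000468, minus strand) and B2m (chr2:122147544-122147573, plus strand). Capitals mark the NF-kappa-B letters and, in B2m, also the core of an interferon-stimulated response element (GAAA, any 2 bases, GAAA).
H2-D1 stretch: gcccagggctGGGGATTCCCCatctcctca
H2-K1 stretch: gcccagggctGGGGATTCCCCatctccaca
B2m stretch: acatGAAACTGAAAatgGGAAAGTCCCttt
The H2-D1 and H2-K1 stretches shared 29 of 30 bases, and 166 of 190 aligned bases (87.4%) of the longer upstream windows were identical. On both strands, the NF-kappa-B letters were found in 3 of the 8 members, against 15.9% of 32851 windows of the same length. The TGACG half-site was in 5 members (17.8% of windows) and the CCAAT box in 6 (33.8%). The exact letters of the gamma-activated site (7.02%) and of the interferon element core (2.98%) were in 1 each. Only these letters were searched, so elements spelled otherwise were missed. A window without a match, such as that of H2-K1 or H2-D1, may still hold an interferon element. The TGACG half-site and the CCAAT box counted for Psmb9 are the same bases as those counted for Tap1. Since H2-K1 and H2-D1 are also near copies, the members in these counts are not independent of each other. The Psmb10 window held none of these 5 motifs. A match is a description of letters, and the overlapping NF-kappa-B matches in H2-K1 and H2-D1 are the same bases read at neighbouring positions or on both strands.

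The immunoproteasome subunits had the widest ranges among the 9 members measured on all 4 arrays. Psmb8, the chymotrypsin-like immunosubunit (LMP7), had normalised values of -0.87 without and -2.25 with LDL in WT, and of 1.13 without and 0.64 with LDL in L2AKO. Psmb9, the caspase-like immunosubunit (LMP2), had values of 0.29, -0.81, 1.95 and 1.67 on the same arrays, in that order, which is kept below. For both genes, each L2AKO array lay above each WT array, and the LDL array lay below the control array within each line. Fewer cells with the RNA and less RNA per cell cannot be told apart in these pooled extracts.

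Psmb10, the trypsin-like immunosubunit (MECL-1), was at 5.13, 4.56, 5.87 and 5.91. It too lay higher on both L2AKO arrays, while its L2AKO arrays were 0.04 apart, which is within the spread of repeated spots. In WT cells the 3 subunits were lower with LDL, with log2 differences of -1.38 for Psmb8, -1.10 for Psmb9 and -0.57 for Psmb10. In L2AKO cells the corresponding differences were -0.49, -0.28 and 0.04.

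Between the lines, Psmb8 was 3.99-fold higher in L2AKO without LDL and 7.42-fold higher with LDL. Psmb9 was 3.17-fold and 5.60-fold higher, and Psmb10 was 1.68-fold and 2.55-fold higher. The comparisons share arrays, since the WT LDL array enters both the LDL difference in WT and the line difference with LDL. For Psmb8, 113 of 12932 measured genes (0.874%) were at least as high in L2AKO with LDL, and 81 of 12974 (0.624%) were at least as low with LDL in WT.

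**Figure D1:**
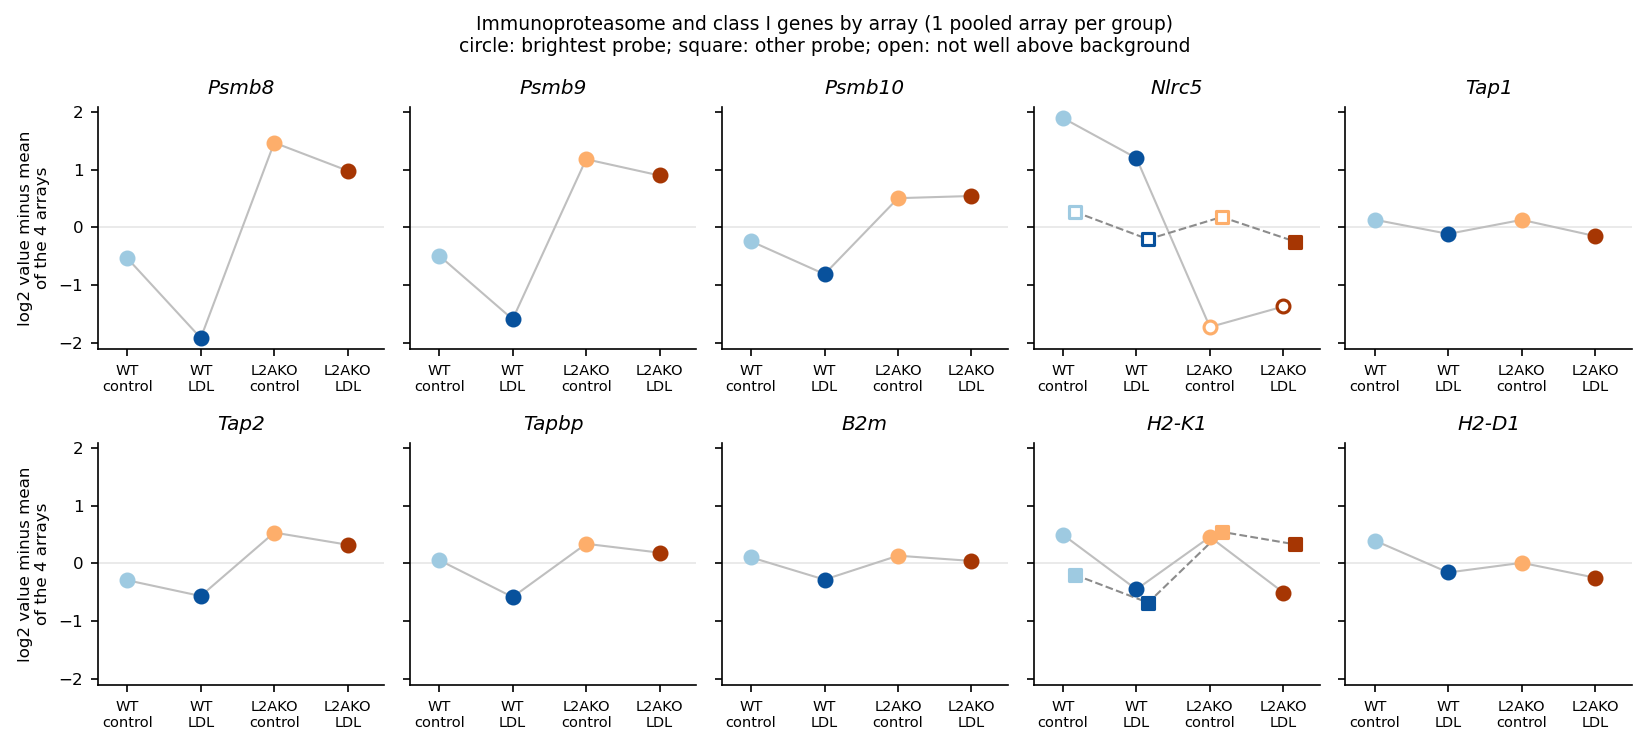
Log2 value of each member minus its mean over the 4 arrays (vertical axis), with 1 array per group along the horizontal axis, circles for the brightest probe, squares for the other probe and open symbols where a probe was not well above background. Psmb8 ran from -1.91 in WT LDL to 1.46 in L2AKO control, while Tap1 stayed between -0.15 and 0.13.

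The constitutive counterparts that these subunits replace gave smaller differences. Psmb5 was at 7.60, 7.37, 7.31 and 7.01 on the 4 arrays. A dimmer Psmb5 probe was at 4.80, 4.54, 4.58 and 4.54. Its line differences were -0.22 without and -0.003 with LDL, against -0.29 and -0.37 for the brighter probe. Psmb6 was at 7.36, 7.20, 7.28 and 7.26, and Psmb7 at 4.32, 4.12, 3.78 and 3.78. None of the 3 genes differed by 1.5-fold in any comparison, nor in any of 9 ways of processing the values, although the sign of the small Psmb6 differences varied among these.

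The line difference of Psmb8 minus that of the brighter Psmb5 probe was 2.29 without LDL and 3.26 with LDL, a 9.57-fold excess in the second case. With the dimmer Psmb5 probe both values would be smaller. For Psmb9 over Psmb6 the difference was 1.74 and 2.42, and for Psmb10 over Psmb7 it was 1.29 and 1.69. With LDL in WT, the same subtraction gave -1.15, -0.94 and -0.37 for the 3 pairs, and in L2AKO it gave -0.18, -0.26 and 0.03. Because both genes of a pair are read on the same arrays, these values do not change with a scaling factor that applies to the whole array. The spike-in shifts of the L2AKO LDL array, from -1.17 to 0.63, were not 1 such factor. The subtraction therefore does not remove shifts of that kind.

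**Figure D2:**
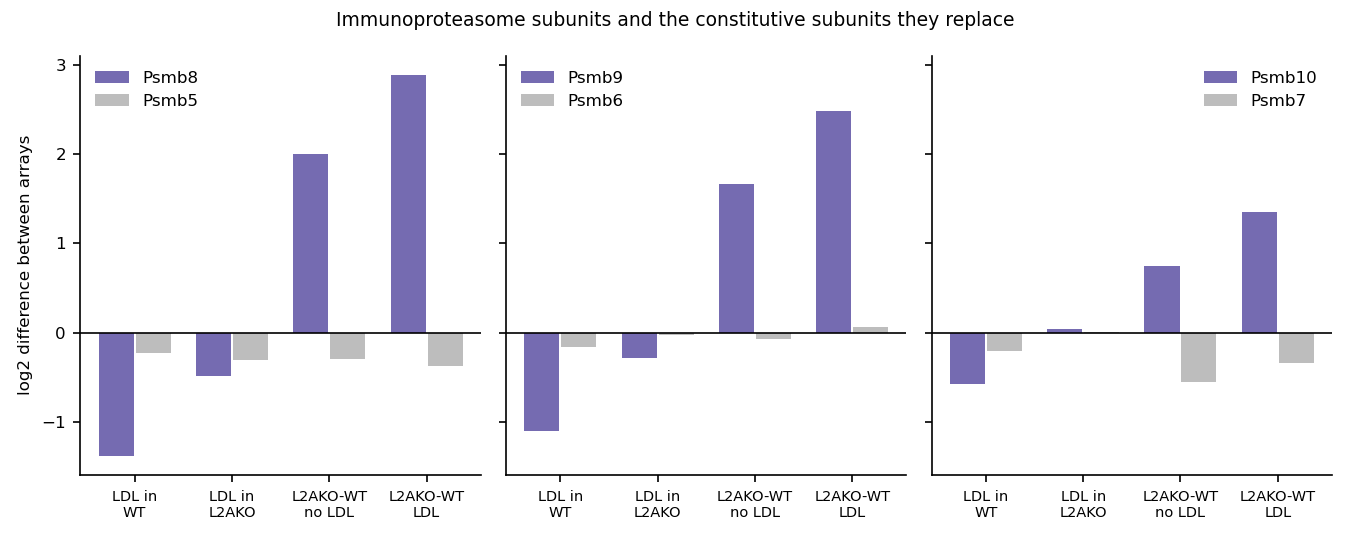
Bars give the log2 differences between arrays (vertical axis) of the immunoproteasome subunits Psmb8, Psmb9 and Psmb10 beside their constitutive counterparts Psmb5, Psmb6 and Psmb7, from 1 array per group. The constitutive genes lay between -0.55 and 0.06 in the line differences, and the immunosubunits between 0.75 and 2.89.

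Of 11 further subunits of the core particle, none did so with LDL in either line, 2 were higher and 1 lower in L2AKO without LDL, and 1 was higher and 2 lower with LDL. Of all genes measured, 15.2% were higher and 16.6% lower in L2AKO without LDL, and 16.9% and 20.5% with LDL, so these counts were near the background. Of 9 activators and assembly factors, 1 was higher in L2AKO without LDL and 2 with LDL, near those shares, and none was lower. Psmg2, an assembly chaperone, was higher without LDL (0.61) and with LDL (0.72). Psme1, a subunit of the interferon-inducible 11S activator, was at 5.38, 4.97, 5.92 and 5.66. Its line difference was 0.70 with LDL. Without LDL it was 0.54, short of 1.5-fold, which it passed in 2 of 9 ways of processing.

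The subunits of the peptide transporter differed from each other in pattern. Tap1 had values of 0.19, -0.06, 0.19 and -0.09, measured on 10, 9, 10 and 8 spots with SDs of 0.05, 0.06, 0.04 and 0.05. Each LDL array lay below each control array, and the spots of the WT LDL and WT control arrays did not overlap. Between the lines Tap1 differed by 0.00 without LDL and -0.04 with LDL, which is within the spread of its spots and changed sign under other scalings.

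Tap2 was at 4.20, 3.93, 5.02 and 4.81 on the arrays in the same order. Both L2AKO arrays lay above both WT arrays, by 0.82 without LDL and 0.89 with LDL. With LDL, Tap2 differed by -0.27 in WT and -0.21 in L2AKO. Psmb9, which shares its upstream interval with Tap1, thus had line differences of 1.67 and 2.49 where Tap1 had none beyond its spots.

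Tapasin, encoded by Tapbp, was at 4.03, 3.39, 4.31 and 4.16. The array of WT cells with LDL was the lowest, and the other 3 were close to each other. With LDL it differed by -0.64 in WT, past 1.5-fold in 5 of 9 ways of processing, and by -0.15 in L2AKO, and it was higher in L2AKO by 0.28 without LDL and 0.77 with LDL.

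Of 10 genes for peptide trimming and loading, 1 was lower with LDL in WT, Erap1 (-0.66, past 1.5-fold in 7 of 9 ways of processing), an aminopeptidase that trims peptides in the endoplasmic reticulum. In L2AKO, 1 was lower with LDL, Pdia3 (-0.61, past 1.5-fold in 4 of the 9), a disulfide isomerase of the loading complex. Of all genes, 2.46% were lower with LDL in WT and 4.55% in L2AKO. In the presence of LDL, the line differences of Pdia3 and of Tpp2, a cytosolic peptidase, were -0.88 and -0.87. None of the 10 genes was higher in any comparison.

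**Figure D3:**
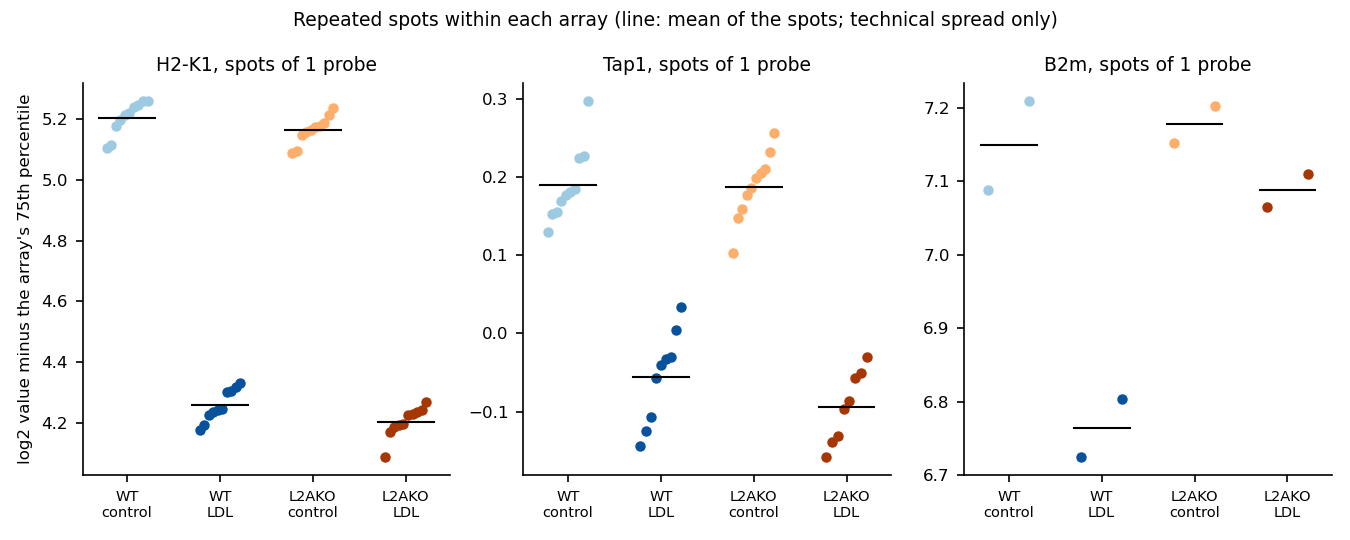
Single spots (points) and their mean (line) for the probes of H2-K1, Tap1 and B2m on the 4 arrays, with the normalised log2 value on a vertical axis that differs between panels. The H2-K1 means of the LDL arrays were 4.26 and 4.20 and those of the control arrays 5.20 and 5.16, while Tap1 means ran only from -0.09 to 0.19.

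The brighter of the H2-K1 probes, printed 10 times, was at 5.20, 4.26, 5.16 and 4.20, with spot SDs of 0.05 to 0.06. Its LDL differences were -0.95 in WT and -0.96 in L2AKO, and both LDL arrays lay below both control arrays on every spot. Between the lines it differed by -0.04 and -0.05, which changed sign in some of the other ways of processing. The other H2-K1 probe, a single spot, was at 4.27, 3.78, 5.01 and 4.79 on those arrays.

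The LDL differences of that second probe were -0.48 in WT and -0.22 in L2AKO, and it was higher in L2AKO by 0.74 without and 1.01 with LDL. The 2 probes of H2-K1 therefore gave different patterns, and class I heavy chain genes are close copies of each other, so neither can be assigned to H2-K1 alone with certainty. H2-D1, the other classical heavy chain of these mice, was at 4.71, 4.16, 4.33 and 4.07, with LDL differences of -0.55 in WT and -0.26 in L2AKO. Its line differences were -0.38 without and -0.09 with LDL, of which the second changed sign under other scalings.

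B2m, the light chain of all these heavy chains, was at 7.15, 6.76, 7.18 and 7.09, each the mean of 2 spots. The array of WT cells with LDL was the lowest, with a difference of -0.38 from the WT control, and the other 3 arrays lay close together. Its line differences were 0.03 without and 0.32 with LDL.

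Nlrc5 was at -2.39 in WT control and -3.08 in WT LDL, a difference of -0.69 that was -0.34 in the authors' deposited values and -0.26 after normexp correction, short of 1.5-fold. On both L2AKO arrays its brighter probe was not well above background (-6.00 and -5.65). The WT signal of that probe was 4.17-fold above the dimmest detected signal of the L2AKO array without LDL, and 3.98-fold with LDL. These are not strict bounds on a line difference. In L2AKO control, the other Nlrc5 probe (-4.39) and Ciita (-4.02) lay above the dimmest detected signal (-4.45) and were not well above background. The other Nlrc5 probe, at -4.30, -4.77, -4.39 and -4.81, was well above background only in L2AKO LDL. Its line differences were -0.09 without and -0.04 with LDL. It lay close to the detection limit everywhere, so these are not measured values to set beside those of the brighter probe.

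The other heavy chains of the class I family were measured for 12 of 14 genes. Without LDL, 7 were higher in L2AKO and 1 was lower, with a median of 0.73, and with LDL it was again 7 and 1, with a median of 0.76. Among all genes 15.2% were higher and 16.6% lower without LDL, and 16.9% and 20.5% with LDL. Over the 9 ways of processing these counts of higher genes ran from 5 to 7 and from 5 to 8. H2-M3, which presents formylated peptides, was at 0.59, 0.26, 2.50 and 2.18, so that it lay 1.90 and 1.91 higher in L2AKO. H2-T23, which encodes Qa-1, was 1.12 and 1.59 higher, and H2-Q10 was 1.28 and 1.62 higher.

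Cd1d1, which presents lipids, was lower in L2AKO, at -1.18 without LDL and -1.09 with LDL. With LDL in WT no gene of this group passed 1.5-fold, where 2.46% of all genes were lower. In L2AKO only H2-T10 passed it with LDL (-0.68, past 1.5-fold in 7 of 9 ways of processing), where 4.55% of all genes were lower. Since the genes of this group and the members are similar in sequence, their probes may not be independent of each other.

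Across the 5 comparisons, the members were counted against all genes measured. With LDL in WT, 5 of 10 members (Psmb8, Psmb9, Tapbp, H2-K1 and Nlrc5) were at least 1.5-fold lower and none higher, with a median of -0.60, where 2.46% of all measured genes were lower and 1.25% higher and the median of all genes was -0.05. All 10 members were below 0, as were 60.7% of all genes. Each spike-in control was lower in WT LDL than in WT control too. The calls of Tapbp and Nlrc5 were lost in some of the other ways of processing. With LDL in L2AKO, 1 of 9 members was lower and none higher, where 4.55% of genes were lower and 3.34% higher, and the medians were -0.26 and -0.08.

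Between lines without LDL, 4 of 9 members were higher in L2AKO (Psmb8, Psmb9, Psmb10 and Tap2) and none lower, where 15.2% of genes were higher and 16.6% lower, with medians of 0.28 for the members and -0.01 for all genes. With LDL, Tapbp joined them, which made 5 of 9, where 16.9% of genes were higher and 20.5% lower, and the medians were 0.77 and -0.05. The LDL difference in L2AKO minus that in WT was above 1.5-fold for 3 of 9 members, Psmb8 (0.89), Psmb9 (0.82) and Psmb10 (0.61, past 1.5-fold in 6 of 9 ways of processing, as Psmb8 was in 8), where 4.77% of genes were higher and 3.99% lower, with medians of 0.29 and -0.03. At 2-fold, 2 of 10 members were lower with LDL in WT (1.03% of genes lower, 0.247% higher) and none in L2AKO (1.33% lower, 0.93% higher). Between lines at 2-fold, 2 of 9 were higher without LDL (7.56% of genes higher, 8.21% lower), 3 of 9 with LDL (8.3% higher, 10.4% lower) and none in the difference of LDL responses (1.39% higher, 0.721% lower). Nlrc5 is left out of the counts that use an L2AKO array, because its brighter probe was not well above background there. Spike-in controls of the L2AKO LDL array were shifted by -1.17 to 0.63, and their part in the counts from that array was not tested.

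**Figure D4:**
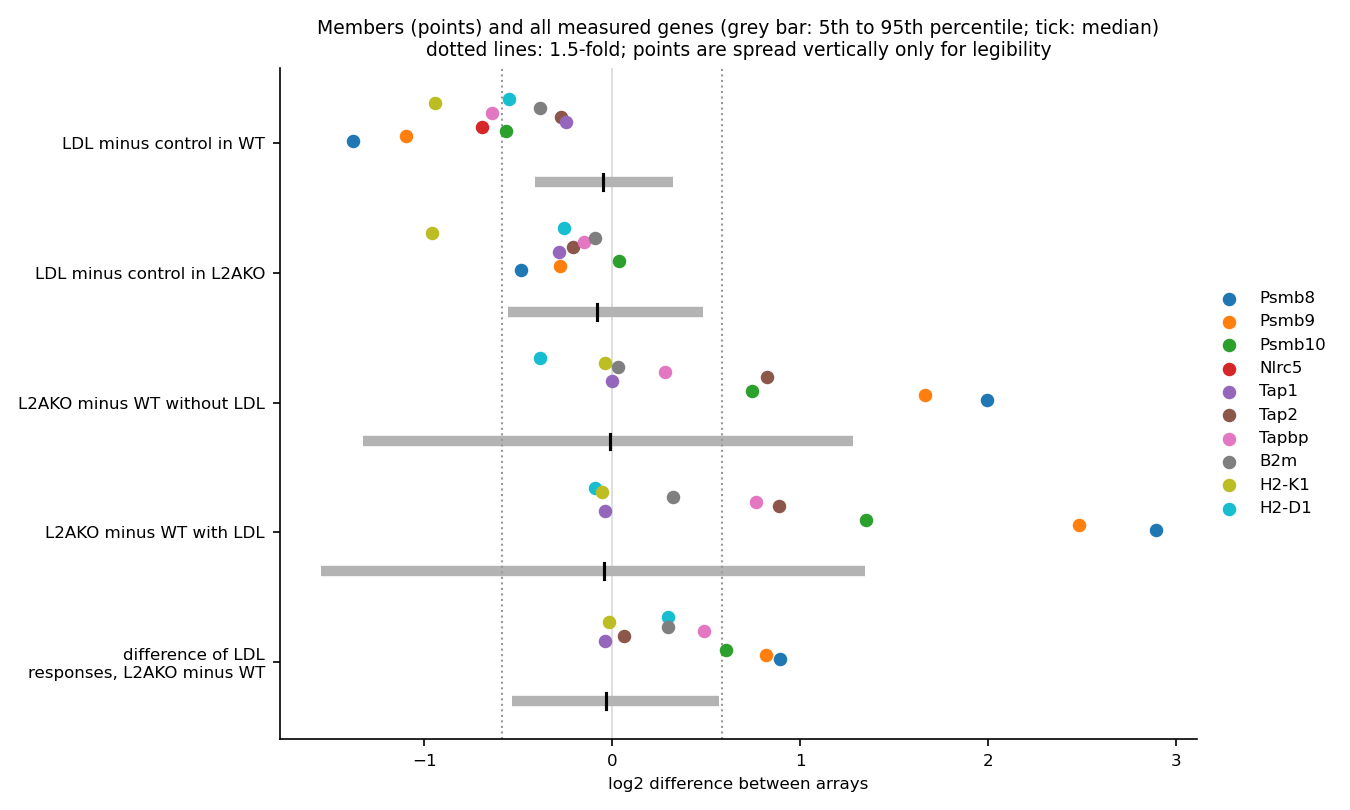
Log2 difference between arrays (horizontal axis) of each member (points) in the 5 comparisons, each from 1 array per group, above a grey bar that spans the 5th to 95th percentile of all measured genes with a tick at their median; dotted lines mark 1.5-fold. Psmb8 reached 2.89 in L2AKO minus WT with LDL, and H2-K1 lay at -0.95 and -0.96 with LDL in the 2 lines.

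Of 9 members measured on all 4 arrays, all 9 were lower with LDL in WT. WT LDL was the lowest array for 6 of them, and L2AKO control was the highest for 5. The shares of all genes with the same lowest or highest array were not counted, so these counts have no background to be judged against. The LDL difference in L2AKO minus that in WT was above 0 for 7 of the 9, as it was for 46.0% of all genes, and 6 were higher in L2AKO LDL than in WT LDL, as were 46.6% of all genes. Over the 9 ways of processing the first count ran from 7 to 9 and the second from 6 to 9.

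Regulators of class I genes were also read. Of 17 measured factors, 4 were lower with LDL in WT, where 2.46% of all genes were: Irf7 (-2.09, and as little as -1.07 in other ways of processing), Stat2 (-1.47), Irf9 (-1.10) and Relb (-0.66). Stat2 and Irf9 act in type I interferon signalling, and Irf7 drives interferon genes. In L2AKO, 3 of them were lower with LDL (Stat2 -0.91, Irf7 -0.70 and Relb -0.70), a count that ran from 1 to 4 over the 9 ways of processing, where 4.55% of all genes were lower.

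Irf1, a factor that binds the interferon elements of class I promoters, was at 4.79, 4.46, 5.19 and 5.15. It was higher in L2AKO with LDL by 0.69, as were Irf7 (1.36, down to 0.66 in other ways of processing) and Stat2 (0.61). These 3 of 17 measured factors were near the 16.9% of all genes that were higher. None was lower, where 20.5% of all genes were. Without LDL none of the factors passed 1.5-fold between the lines. Ciita, the class II transactivator, was above background only in WT control.

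Interferon ligands were at or near background, with Ifnb1 and Ifng not well above it on any array. Of 11 receptors, kinases and inhibitors of the pathway, Usp18, which limits type I interferon receptor signalling, was at 0.87, -2.49, 0.64 and -0.35 on the arrays in order. Its LDL difference was -3.36 in WT, with a range of -3.37 to -2.39 over the 9 ways of processing, and -0.99 in L2AKO. It was the 1 gene of these 11 that was lower with LDL in WT, where 2.46% of all genes were lower and 1.25% higher. In L2AKO, 2 of the 11 were lower with LDL, where 4.55% of all genes were lower and 3.34% higher. None of the 11 was higher with LDL in either line. Between the lines, 2 were higher and 1 lower in L2AKO without LDL, and 1 was higher and 3 lower with LDL, near the shares of all genes (15.2% and 16.6%, then 16.9% and 20.5%). Of 4 class II genes measured in WT, 1 was lower with LDL, where 2.46% of all genes were. In L2AKO, 2 of them were higher than in WT without and with LDL (15.2% and 16.9% of all genes), with none lower. They included Cd74, the invariant chain, which had LDL differences of -0.85 in WT and -0.83 in L2AKO and was higher in L2AKO by 0.61 and 0.63. Each of these Cd74 differences was past 1.5-fold in 7 of 9 ways of processing, and the LDL difference in WT was as little as -0.18.

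By distance between centred values over the 4 arrays, the genes most like Psmb8 among 12488 were Gbp2 (0.409), Zc3h12a (0.415), Slc16a3 (0.467), Cd55b and Gstt2 (0.533). Zc3h12a (-3.29) and Gstt2 (-3.65) were dim in WT LDL, where the dimmest detected signal was -4.40. The nearest genes to Tap1 were Fbxw2, Gps1, Ephb4, Smdt1 and Tet2, all within 0.0304. These distances are smaller than the 0.08 spread of the difference of 2 spots, so this ranking is not resolved. For the brighter H2-K1 probe the nearest genes were Gcat (0.149), Cxcl16 (0.213), Slc25a1 (0.218), Acly (0.219) and Fasn (0.230). Of these, Acly, Slc25a1 and Fasn take part in fatty acid synthesis.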

How the data were processed

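Intensities came from the deposited scanner files of 4 arrays, where, per the file headers, version 10.7.3.1 of the Feature Extraction software had subtracted background. The authors' deposited value table, a linear signal with column medians from 57.4 to 57.6, was used as an alternative only; its scaling is not given, and RMA and oligo appear in the submitters' processing notes. No deposited log2 values were used: log2 was taken here. Control and outlier spots were left out, spots of a probe were averaged, and each array's 75th percentile over 55679 probes was subtracted. Probes were named through RefSeq accessions in a GRCm38.p6 table (28324 probes with 1 gene); the array annotation is mm9, and no coordinates were converted. A gene took its brightest probe and was measured if it stood well above background on each array compared. The members, lists and named genes were chosen with earlier results of these data known. The text names the members, the constitutive partners, up to 4 genes of a list by largest difference and the 5 nearest neighbours of Psmb8, Tap1 and H2-K1; Cd1d1, Ciita, Ifnb1, Ifng and the markers below background were added after their values were seen. Steps were tested on simulated data. Python 3.11.15, numpy 2.4.6, pandas 2.3.3, R 4.3.3 and limma 3.58.1 were used.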

Additional observations from a re-analysis of the deposited data

Results flagged for a closer look

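No member differed in sign between groups by more than the spread of repeated spots (0.08); Psmb10 had LDL differences of -0.57 in WT and 0.04 in L2AKO. Among the related genes considered for naming in the text, 3 had differences of opposite sign in the groups compared, and none of these contrasts was tested, since each rests on 1 array per group. Tpp2 differed with LDL by 0.12 in WT and by -0.44 in L2AKO. H2-Q10 differed with LDL by -0.25 in WT and by 0.084 in L2AKO, where other ways of processing gave -0.91 to 0.19 and 8 of 9 kept the sign. Usp18 was -0.23 in L2AKO minus WT without LDL and 2.15 with LDL (1.39 to 2.34 in other ways of processing).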

How the results depend on the processing

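No paired analysis was possible because each group had 1 array. Settings tried were 3 other scalings, normexp, the value table of the authors, 2 other filters for dim probes, a mean over probes and a 2-fold threshold. At the 2-fold threshold the count of members was 2 with LDL in WT, 0 with LDL in L2AKO, 2 between lines without LDL, 3 with LDL and 0 for the difference of responses. With normexp it was 3 with LDL in WT and 1 for the difference of responses, and the authors' deposited values gave 3 with LDL in WT. The other 37 counts were within 1.5 times those reported. Psmb8 ranged from -1.42 to -0.94 with LDL in WT and from 2.27 to 3.09 between lines with LDL. The line differences of Tap1 and H2-K1, that of H2-D1 with LDL and the LDL differences of B2m in L2AKO changed sign in some settings. Median scaling moved the median of all genes between lines with LDL from -0.05 to 0.15. The mean over probes left Nlrc5 unmeasured in WT. Signal over background limits Nlrc5 and the interferon ligands.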
